A study of Mus musculus with 3 samples.

Results

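The transcripts followed here belong to 10 genes of fat cells and of fatty-acid handling: Adipoq, Pparg, Fabp4, Lpl, Cd36, Plin1, Car3, Cebpa, Cidec and Gpihbp1. They were chosen by symbol, and all 10 were found among the 32285 genes of each of the 3 count matrices. The matrices held droplet-based single-cell RNA counts (10x Genomics, 3′ v3 chemistry) of cells dissected from mouse knee synovium and infrapatellar fat pad, the fat cushion behind the kneecap tendon. The control library came from wild-type mice of 2 months of age. The operated libraries came from wild-type mice whose medial meniscus was destabilised (DMM, a surgical model of osteoarthritis) at 2 months of age, with tissue taken 1 week or 2 months afterwards, so the 2-month mice were also older than the controls. For a library the tissue of 5 to 10 mice was pooled, digested with trypsin and then with collagenase and sorted for live cells. A group was therefore a single library, groups could not be tested against each other, and every interval given is a 95% interval for counting error alone, which leaves out variation among animals. The sources used here did not say whether the controls had sham surgery, which sex the mice were or how the libraries were sequenced together.

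Fat cells take up fatty acids from the blood by a relay across the capillary wall. Lipoprotein lipase (Lpl) is secreted by tissue cells, carried across the endothelium and held on the luminal surface by its anchor Gpihbp1, where it frees fatty acids from circulating triglyceride. The membrane transporter Cd36 and the cytosolic carrier Fabp4 pass them inward, and the nuclear receptor Pparg switches on many of these genes in capillary endothelium, macrophages and fat cells. Cebpa is the partner of Pparg in making fat cells, while Plin1 and Cidec coat and fuse lipid droplets, Adipoq is the fat-cell hormone adiponectin, and Car3 is a carbonic anhydrase abundant in fat and slow muscle. Lipid-laden fat cells are large and fragile, and droplet methods usually hold few of them.

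The genes lie apart in the genome (build GRCm38, GENCODE annotation vM21, all protein-coding). Lpl is at chr8:68880491-68907448 on the plus strand, Gpihbp1 at chr15:75596628-75599481 (plus), Cd36 at chr5:17781690-17888801 (minus) and Fabp4 at chr3:10204088-10208576 (minus). Pparg is at chr6:115360951-115490399 (plus), Cebpa at chr7:35119293-35121928 (plus), Adipoq at chr16:23146536-23158028 (plus), Car3 at chr3:14863512-14872523 (plus), Plin1 at chr7:79720218-79732903 (minus) and Cidec at chr6:113424634-113435760 (minus). The 250 bases upstream of RefSeq start sites (build GRCm38.p6) were read for 6 of the 10 members, with 9 start sites in all. Fabp4, Lpl, Car3 and Gpihbp1 are named only. The windows below are those of the regulators Pparg and Cebpa and of Cd36, whose capillary levels are compared below, and of Adipoq, which marks the fat cell. They are written 5′ to 3′ on the strand of the gene, ending at the base before the start site. Capitals mark the searched letters AGGTCA (bound by nuclear receptors), TTGCNNAA (bound by C/EBP proteins), CCAAT and TATAAA on either strand.
Pparg, the most downstream of its 3 start sites, chr6:115421816-115422065, plus strand: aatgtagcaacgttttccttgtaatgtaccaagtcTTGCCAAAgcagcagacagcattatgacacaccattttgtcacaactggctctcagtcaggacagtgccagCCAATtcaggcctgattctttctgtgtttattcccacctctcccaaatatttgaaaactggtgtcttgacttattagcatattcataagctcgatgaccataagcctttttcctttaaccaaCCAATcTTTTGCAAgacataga
Cebpa, chr7:35119193-35119292, plus strand: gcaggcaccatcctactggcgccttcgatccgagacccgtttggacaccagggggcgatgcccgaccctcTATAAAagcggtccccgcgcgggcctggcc
Cd36, chr5:17835897-17836146, minus strand: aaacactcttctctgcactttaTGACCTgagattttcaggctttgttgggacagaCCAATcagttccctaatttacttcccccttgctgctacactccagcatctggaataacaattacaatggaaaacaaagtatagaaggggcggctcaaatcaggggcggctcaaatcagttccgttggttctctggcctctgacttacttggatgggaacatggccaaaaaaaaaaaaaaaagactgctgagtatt
Adipoq, chr16:23146436-23146535, plus strand: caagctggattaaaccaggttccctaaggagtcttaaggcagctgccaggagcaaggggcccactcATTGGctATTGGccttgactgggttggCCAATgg

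The downstream Pparg window held the C/EBP letters as TTGCCAAA at -215 and TTTTGCAA (opposite strand) at -16, with CCAAT at -144 and -22. AGGTCA stood at -28 and -9 upstream of the other Pparg start sites, and on the opposite strand at -228 of Cd36. In Cebpa the TATA letters began at -30, and in Adipoq CCAAT lay on the gene's strand at -7 and on the opposite strand at -34 and -27. Over the 9 member windows, AGGTCA was present in 3, TTGCNNAA in 3, CCAAT in 4 and TATAAA in 2. The shares of all 32851 RefSeq windows of the same length were 14% for AGGTCA, 9.56% for TTGCNNAA, 33.8% for CCAAT and 12.4% for TATAAA. A pair of AGGTCA letters with 1 base between them was in 0 of the 9 member windows and in 0.0335% of all windows. A match of letters is a description of these windows and not a bound site, and counts made at the 3′ end do not tell which start site was used.

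UMIs (unique molecular identifiers) each stand for 1 captured transcript. The cells kept, with 500 or more genes and a mitochondrial share of UMIs up to 10%, were 8099 from the control, 12316 from 1 week and 9782 from 2 months, with median depths of 10871, 12919.5 and 13543 UMIs. Cells were assigned to gates by single transcripts. Fibroblasts had a Pdgfra UMI and neither Ptprc nor Cdh5 (3781, 4748 and 5317 cells), and macrophages had at least 3 C1qa UMIs (1101, 1969 and 894 cells). Endothelial cells had a Cdh5 UMI and no Ptprc. They were split into capillary endothelium, with at least 4 UMIs of Gpihbp1 and Rbp7 together (396, 333 and 207 cells), and other endothelium (874, 1451 and 950 cells). Mural cells, which wrap vessels, had at least 3 Rgs5 UMIs and none of the 3 other gate genes. Neutrophils that met no other gate, with at least 2 Retnlg UMIs (75, 398 and 857 cells), served to read the level of free RNA in the droplets. All markers fixed for fibroblasts (6), endothelium (6) and macrophages (7) were detected in their own gates in every library. The lists include the gate genes Pdgfra, Cdh5 and C1qa, and detection alone did not tell gates apart. All 6 fibroblast markers, for example, were also detected in the capillary and macrophage gates of every library. The gates were not pure: the summed fibroblast markers were at 3119, 3608 and 2546 CPM in the capillary gate against 22232, 40163 and 20903 in the fibroblast gate, and neutrophil markers in the macrophage gate were at 82.3, 723 and 4498 CPM. CPM are UMIs scaled to 1000000 over the summed UMIs of a gate in a library. The libraries shared 26, 21 and 30 cell barcodes between pairs among the passed cells.

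The members were held by different cells, as the plot of levels by gate shows. Of the 4116, 4281 and 2149 Gpihbp1 UMIs in passed cells, 89.4%, 76.0% and 84.9% lay in the capillary gate, which the gene itself helped to define. Of Fabp4 UMIs 55.3%, 29.4% and 37.7% lay there. For Lpl, fibroblasts held 6742 of 10755 UMIs in the control, 5386 of 19625 at 1 week and 5941 of 9950 at 2 months. Macrophages held 580, 8096 and 1423 Lpl UMIs, so at 1 week they, and not fibroblasts, were the gate with most Lpl UMIs. Cd36 was shared between capillary endothelium (4924, 1830 and 3636 UMIs) and macrophages (4870, 7892 and 7221), and Cebpa between macrophages (1721, 2523 and 1777) and fibroblasts (1077, 1150 and 2012). Adipoq was different: 93.0%, 85.7% and 81.4% of its 714, 112 and 102 UMIs came from 8, 4 and 3 cells with at least 5 Adipoq UMIs.

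**Figure D1:**
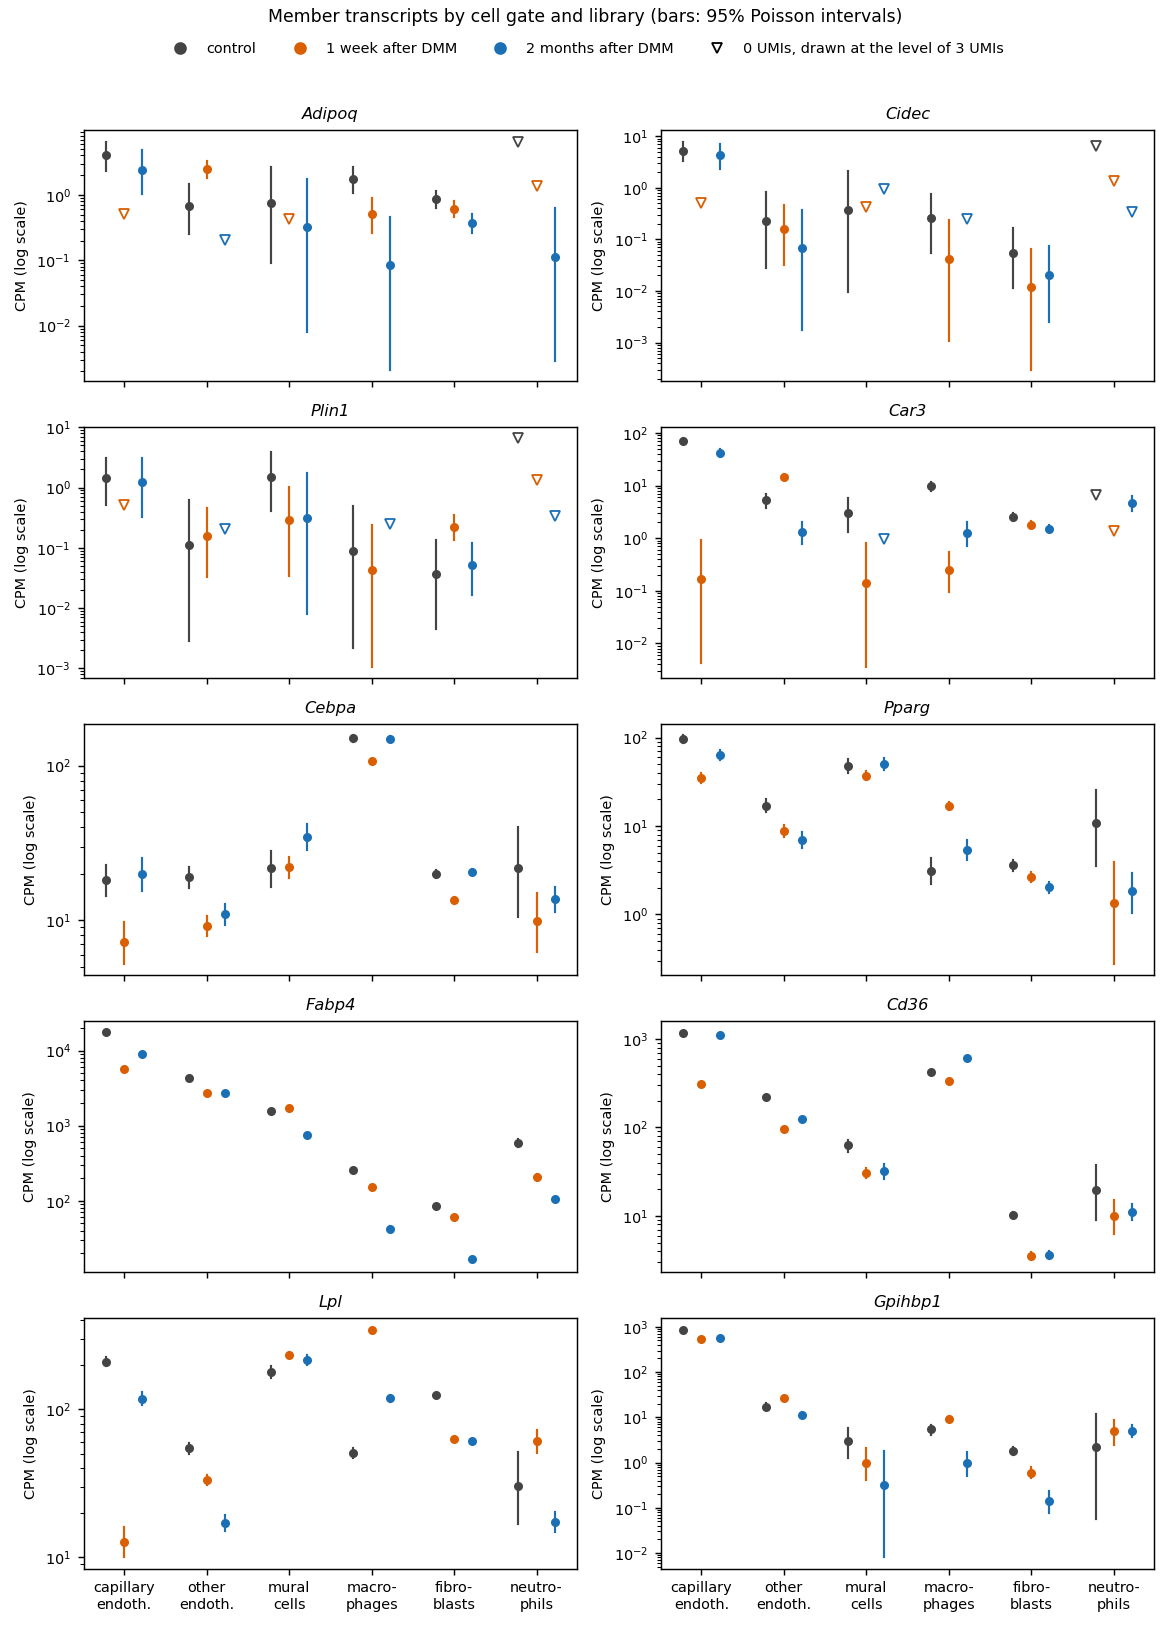
Level of each of the 10 transcripts (CPM, log scale) in 6 cell gates, with the control in grey, 1 week after DMM in orange and 2 months in blue, and bars for 95% Poisson intervals. In capillary endothelium Lpl was at 210.1, 12.7 and 118 CPM, whereas in macrophages it was at 50.6, 342 and 119 CPM, and open triangles mark sums of 0 UMIs drawn at the level of 3 UMIs.

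Lpl, the lipase that frees fatty acids at the vessel wall, differed between libraries in opposite directions in capillary endothelium and macrophages. Capillary endothelium held 210.1 CPM in the control (95% interval 196 to 224, 889 UMIs), 12.7 at 1 week (9.97 to 15.9, 75 UMIs) and 118 at 2 months (107 to 130.3, 389 UMIs). The 1-week level was thus the low one, 16.6-fold below the control (13.1 to 21.3), and the 2-month level was 9.30-fold above 1 week (7.25 to 12.1) and 1.78-fold below the control (1.58 to 2.01). Cells with an Lpl UMI made up 56.3%, 11.7% and 45.9% of capillary cells, whose median depths were 8226, 14822 and 13263 UMIs. After every cell was thinned to 2000 UMIs, which left out 7, 0 and 0 shallower cells, the shares were 30.6%, 2.70% and 22.7%. In neutrophils, taken here as the gate that should lack the gene, 12%, 9.30% and 6.53% of cells had an Lpl UMI at median depths of 4101, 3245 and 5771. Per cell, the capillary level was 12.03, 0.664 and 10.6 times the neutrophil level. Without the neutrophil with most Lpl UMIs, a comparison added after seeing the data, it was 16.6, 0.972 and 12.6 times. Capillary Lpl at 1 week was thus not above the neutrophil level, and in UMIs per cell in place of CPM it was 9.97-fold below the control.

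In macrophages Lpl was at 50.6 CPM in the control (46.5 to 54.9), 342 at 1 week (335 to 349.6) and 119 at 2 months (113 to 125). The 1-week level was 6.76-fold above the control (6.22 to 7.37), and the 2-month level was 2.35-fold above it (2.13 to 2.59). Cells with an Lpl UMI were 22.1%, 58.2% and 34.9% of macrophages (8.04%, 30.0% and 14.1% after thinning), at median depths of 9617, 10117 and 11749.5 UMIs. Per cell these levels were 2.82, 12.1 and 8.97 times those of neutrophils. In other endothelium Lpl was at 54.5, 33.2 and 17.1 CPM, 3.19-fold below the control at 2 months (2.74 to 3.73) or 2.07-fold in UMIs per cell, but only 2.94, 1.29 and 1.496 times the neutrophil level per cell. Mural cells stood apart from both, with 178, 232 and 215 CPM and intervals for the ratios to the control of 1.18 to 1.45 at 1 week and 1.07 to 1.36 at 2 months.

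In fibroblasts, the largest gate, Lpl was at 125 CPM in the control (122 to 128), 63.1 at 1 week (61.4 to 64.8) and 60.9 at 2 months (59.3 to 62.4). The operated libraries were both below the control, 1.98-fold (1.91 to 2.05) and 2.05-fold (1.98 to 2.12), and 1.04-fold apart from each other (0.999 to 1.08). In UMIs per cell the 2-month Lpl difference was 1.60-fold, under the 2-fold threshold. The gate is a mixture, and Lpl differed more between fibroblast subsets than between libraries. Sublining cells with Myoc or Penk transcripts held 307, 246 and 266 CPM (513, 93 and 319 cells), and lining cells with Clic5 or Tspan15 held 7.95, 9.90 and 3.74 CPM (644, 253 and 1115 cells). Progenitor-type cells with Pi16 or Dpp4 were at 47.5, 79.6 and 69.5 CPM, and cells with Gdf10, Inmt or Fmo2 at 125, 161 and 215, so in these subsets the control was the lowest library. Cells with Thbs4 or Cilp went the other way, at 92.9, 52.3 and 32.5 CPM. So did the 2003, 2884 and 2484 cells that met no subset or more than 1, at 146, 65.8 and 77.7 CPM. Cells with Acan or Col11a1 formed a further subset, whose levels are not given here. When the operated libraries were weighted to the control's mix of subsets, 2 members instead of 5 were at least 2-fold lower at 2 months.

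Gpihbp1, the anchor of the lipase, helped to choose the capillary cells, so its level there is a description: 869, 549.7 and 553 CPM. Rbp7, the retinol carrier that completed the gate, was at 671, 73.9 and 324 CPM. Cells of at least 4 UMIs of the pair were 31.2% (28.6 to 33.8), 18.7% (16.9 to 20.6) and 17.9% (15.7 to 20.2) of endothelial cells, and cells with at least 2 Rbp7 UMIs were 23.7%, 5.38% and 11.6%. The 1-week capillary gate thus rested mostly on Gpihbp1 and the control gate on both genes. Just inside the threshold, at 4 UMIs, Fabp4 was at 9049, 3939 and 6306 CPM and Cd36 at 590.0, 235 and 600.0. Just outside it, at 3 UMIs, Fabp4 was at 6162, 4068 and 4080 CPM and Cd36 at 481, 165 and 415. With the gate set on Rbp7 alone, capillary Lpl at 1 week was 5.64-fold below the control in place of 16.6-fold, Cd36 2.20-fold and Fabp4 1.98-fold. With endothelium not split it was 3.70-fold for Lpl, 3.58-fold for Cd36 and 2.52-fold for Fabp4.

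Cd36 and Fabp4, which take fatty acids across the membrane and through the cytosol, were also lowest at 1 week in capillary endothelium. Cd36 was at 1163 CPM in the control (1131 to 1196), 309 at 1 week (295 to 324) and 1103 at 2 months (1067 to 1139). The 1-week level was 3.76-fold below the control (3.56 to 3.97), while the control and the 2-month level were 1.06-fold apart (1.01 to 1.10). Fabp4 was at 17473 CPM in the control (17347 to 17599), 5628 at 1 week (5567 to 5688) and 8974 at 2 months (8872 to 9077). It was thus 3.10-fold below the control at 1 week (3.06 to 3.15) and 1.95-fold below it at 2 months (1.92 to 1.97). Control capillary cells were the shallower ones, and in UMIs per cell the 1-week difference was 1.87-fold for Fabp4, under the 2-fold threshold, and 2.26-fold for Cd36. The difference was seen in the typical cell as well, with medians over capillary cells of 17347, 4597 and 6305 CPM and of 151.5, 68 and 91 Fabp4 UMIs. A Fabp4 UMI was present in 99.7%, 98.8% and 84.5% of capillary cells, so at 2 months some gated cells had none.

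Other cells held these carriers at other levels. In other endothelium Cd36 was at 218, 96.0 and 126 CPM, 2.27-fold below the control at 1 week (2.13 to 2.43) but 1.75-fold in UMIs per cell, and Fabp4 at 4371, 2744 and 2739.8. In macrophages, where Cd36 acts as a scavenger receptor for oxidised lipid, it was at 425 (413 to 437), 333 (326 to 341) and 602 CPM (588 to 616). The 2-month library was therefore highest, 1.81-fold above 1 week (1.75 to 1.86), and no ratio to the control reached 2-fold. Macrophage Cd36 was 36.9, 72.5 and 71.4 times the neutrophil level per cell, far from the background.

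In fibroblasts and macrophages Fabp4 was far below its endothelial level. In fibroblasts it was at 85.2, 61.7 and 16.9 CPM, 5.04-fold below the control at 2 months (4.76 to 5.34), and in macrophages at 259, 151 and 42.3 CPM, 6.14-fold below (5.58 to 6.76). Per cell these levels were 0.339, 0.971 and 0.290 times that of neutrophils for fibroblasts and 0.753, 1.59 and 0.531 times for macrophages. A Fabp4 UMI was found in 57.4%, 34.4% and 14.8% of fibroblasts and in 56.0%, 21.1% and 14.5% of neutrophils, although the fibroblasts were deeper (median 13153, 16492 and 16085 UMIs). Macrophages had one in 60.1%, 30.2% and 14.7% of cells. The neutrophil mean in the control rested on few cells, since 76.2% of its 269 Fabp4 UMIs came from 1 cell. Without the richest neutrophil of each library, fibroblast Fabp4 was 1.41, 1.38 and 0.364 times and macrophage Fabp4 3.12, 2.26 and 0.665 times the neutrophil level. The 2-month levels were thus below that of neutrophils either way, the control levels were below it with that cell and above it without, and the part of free RNA in these differences was not tested. Cd36 in fibroblasts, at 10.3, 3.52 and 3.62 CPM, was 1.22, 1.15 and 0.587 times the neutrophil level per cell, or 2.17, 1.48 and 0.738 times without the richest neutrophil.

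**Figure D2:**
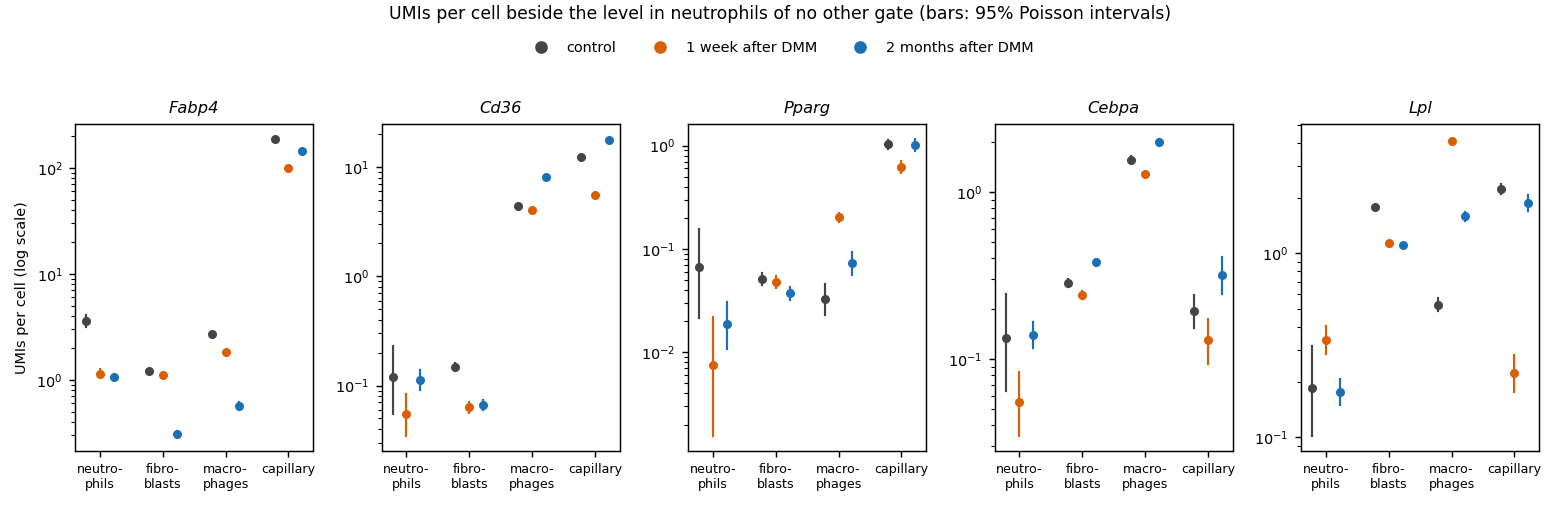
UMIs per cell (log scale) of 5 members in neutrophils of no other gate, fibroblasts, macrophages and capillary endothelium, with 95% Poisson intervals. Fabp4 in fibroblasts lay at 0.339, 0.971 and 0.290 times the neutrophil level, and capillary Lpl at 1 week lay at 0.664 times it, whereas macrophage Lpl at 1 week was 12.1 times as high.

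Pparg, the nuclear receptor of the fatty-acid programme, was also lowest at 1 week in capillary endothelium and highest at 1 week in macrophages. In capillary endothelium it was at 96.6 CPM in the control (87.5 to 106), 35.0 at 1 week (30.4 to 40.1) and 63.7 at 2 months (55.4 to 72.9). The 1-week level was 2.76-fold below the control (2.33 to 3.28) and the 2-month level 1.52-fold below it (1.28 to 1.80). In UMIs per cell the 1-week difference was 1.66-fold, under the 2-fold threshold. Capillary Pparg was 15.5, 82.5 and 54.3 times the neutrophil level per cell. In macrophages Pparg was at 3.14 CPM in the control (36 UMIs), 16.8 at 1 week (397 UMIs) and 5.42 at 2 months (65 UMIs). At 1 week it was 5.34-fold above the control (3.79 to 7.74), with a UMI in 2.82%, 16.4% and 5.48% of cells. The control value was 0.490 times the neutrophil level, where 5 Pparg UMIs were counted, and the 1-week value 26.7 times. In other endothelium Pparg was at 17.0, 8.72 and 6.98 CPM, 2.44-fold below the control at 2 months (1.89 to 3.17) but 1.58-fold in UMIs per cell. In mural cells it was at 48.3, 37.2 and 50.9 CPM, and in fibroblasts at 3.59, 2.65 and 2.03 CPM, with no ratio of 2-fold in either gate.

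Cebpa, the transcription factor that works with Pparg in fat cells and with other partners in myeloid cells, was highest in macrophages at 150.1 (143 to 157), 107 (102 to 111) and 148 CPM (141 to 155). The 1-week level was the low one there, 1.41-fold below the control (1.32 to 1.497). In capillary endothelium Cebpa was at 18.2, 7.27 and 20.01 CPM (77, 43 and 66 UMIs), 2.50-fold below the control at 1 week (1.70 to 3.72) and 2.75-fold above 1 week at 2 months (1.85 to 4.14). Other endothelium gave 19.0, 9.19 and 10.97 CPM, 2.06-fold below the control at 1 week (1.66 to 2.56). In UMIs per cell the 1-week Cebpa differences were 1.51-fold in capillary and 1.58-fold in other endothelium, both under 2-fold. Endothelial Cebpa was 1.22 to 2.34 times the neutrophil level per cell, but neutrophil precursors use Cebpa themselves, so that level is no measure of free RNA for this gene. In fibroblasts Cebpa was at 19.9 (18.8 to 21.2), 13.5 (12.7 to 14.3) and 20.6 CPM (19.7 to 21.5), so the control and 2-month levels had overlapping intervals and 1 week was lower, 1.48-fold below the control. Among fibroblast subsets the lining cells had 15.0, 18.2 and 25.1 CPM and the progenitor-type cells 5.04, 14.4 and 12.6, while Myoc or Penk cells had 32.2, 21.9 and 22.6.

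**Figure D3:**
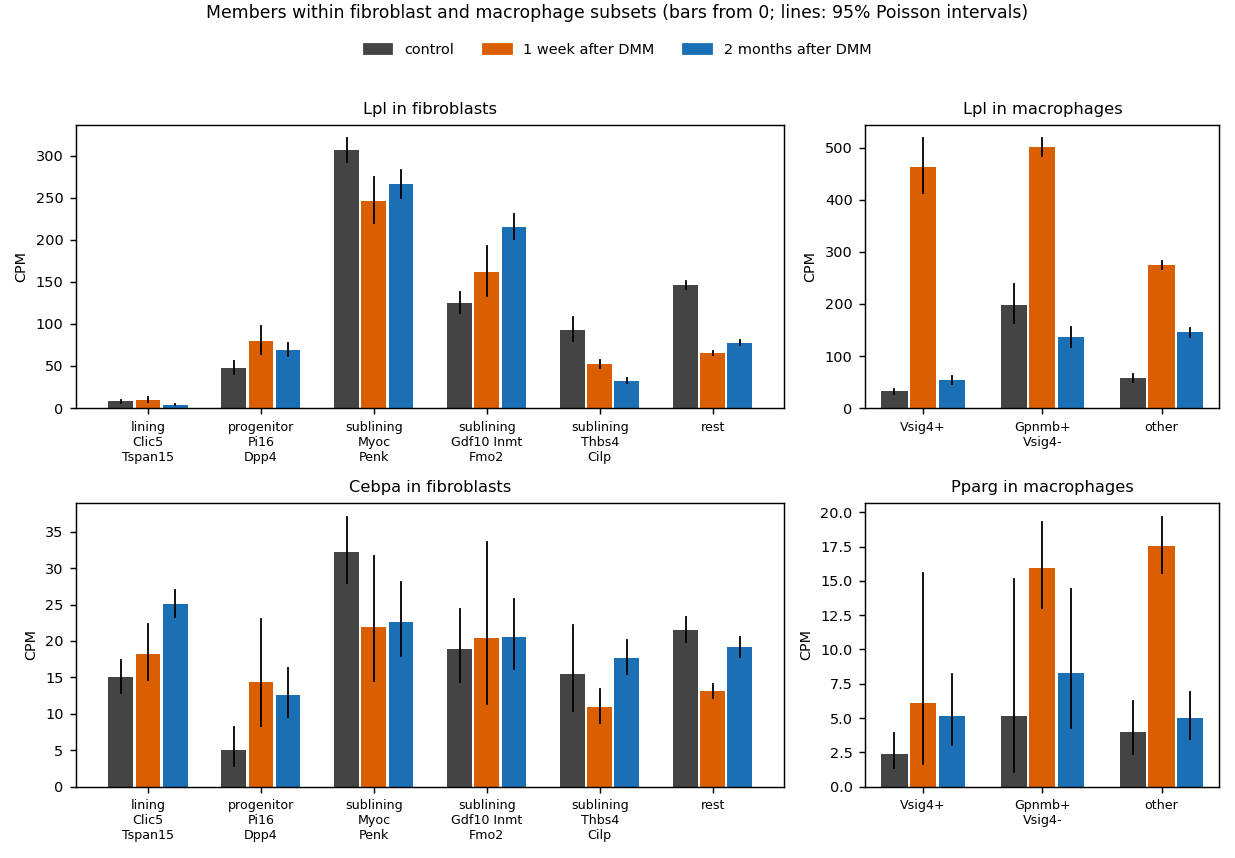
Bars from 0 give CPM of Lpl and Cebpa in fibroblast subsets and the remaining fibroblasts, and of Lpl and Pparg in 3 macrophage subsets. Lines are 95% Poisson intervals, colours are libraries, and the Acan or Col11a1 fibroblast subset is not drawn. Lpl was highest in Myoc or Penk fibroblasts (307, 246 and 266 CPM), and in Vsig4-positive macrophages it was at 32.0, 463 and 53.0 CPM.

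Macrophage Lpl and Pparg were also read within subsets. Vsig4-positive macrophages, which form the barrier layer of the synovial lining, numbered 591, 48 and 236 cells and held 32.0, 463 and 53.0 CPM of Lpl. Gpnmb-positive cells without Vsig4, a state linked to lipid and debris uptake, numbered 29, 428 and 76 and held 198, 501 and 136 CPM. The remaining 481, 1493 and 582 cells held 57.7, 275 and 145 CPM, so the 1-week library was the highest in each subset. For Pparg the 1-week level was 6.08 CPM against 2.36 in the control in Vsig4-positive cells, with overlapping intervals (1.66 to 15.6 and 1.32 to 3.8998). It was 15.9 against 5.17 in Gpnmb-positive cells, also with overlapping intervals, and 17.5 (15.6 to 19.7) against 3.96 (2.35 to 6.26) in the remainder. Cd36 in the remainder was lower at 1 week, 250.1 against 502 CPM, while in Vsig4-positive cells it was higher, 851 against 383. The 48 Vsig4-positive cells at 1 week also carried Fabp4 at 711 CPM, with a UMI in 31.2% of them.

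The proteins that define the mature fat cell gave few UMIs outside a handful of cells. Adipoq had 17, 0 and 8 UMIs in the capillary gate, 6, 47 and 0 in other endothelium, 20, 12 and 1 in macrophages and 47, 52 and 36 in fibroblasts. In other endothelium at 1 week 44 of the 47 came from 1 cell, and in macrophages 19 of 20 in the control and 10 of 12 at 1 week came from 1 cell each. Ratios of Adipoq that use these sums of other endothelium and macrophages therefore describe single cells. In fibroblasts 2 cells per library held 61.7%, 80.8% and 83.3% of the Adipoq UMIs. In the capillary gate they were spread, with 13 control cells holding 1 UMI and 2 cells holding 2 to 4, and 8 cells holding 1 each at 2 months. The lipid-droplet gene Cidec had 22, 0 and 14 UMIs in capillary cells, at least 10.3-fold lower at 1 week than in the control by the floor of 3 UMIs per gate sum. It entered that comparison only through its control UMIs. Plin1, the main perilipin of fat cells, had 6, 0 and 4 UMIs in capillary cells and 2, 19 and 5 in fibroblasts, where the 1-week ratio to the control was 6.01 (1.45 to 53.2) and 5 of the 19 UMIs came from 1 cell.

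Car3 was spread over capillary cells rather than held by 1 cell. The capillary gate had 299, 1 and 139 UMIs, or 70.6, 0.169 and 42.1 CPM, in 29.5%, 0.300% and 18.8% of cells, and the richest control cell held 5.69% of them. The 1-week ratio to the control was 418-fold lower, with an interval of 74.4 to 16563 because it rests on 1 UMI. Neutrophils had 0, 0 and 41 Car3 UMIs, and 0 of 75 and 0 of 398 cells allow shares of cells with a UMI of up to 4% and 0.754%, by a limit of 3 cells. Most of the 41 UMIs came from 1 cell, since 3 remained over the 856 other neutrophils at 2 months. In macrophages Car3 had 111, 6 and 15 UMIs, 38.2-fold below the control at 1 week (17.0 to 106) and 7.74-fold below it at 2 months (4.495 to 14.3), with 36 of the control UMIs in 1 cell. In other endothelium it had 46, 282 and 19 UMIs, of which 281 at 1 week lay in 1 cell that also held 44 Adipoq UMIs. Without cells of at least 5 Adipoq UMIs the 1-week log2 ratio there was -6.63 in place of 1.5. Fibroblasts had 139, 155 and 149 Car3 UMIs, and the top cell held 23.0%, 79.4% and 48.3% of them.

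Cells with at least 5 Adipoq UMIs were 8 of 8099 in the control (0.0988%, 0.0427 to 0.195), 4 at 1 week and 3 at 2 months. The control cells held 8 to 323 Adipoq UMIs (median 24.5), 0 to 1155 Car3 UMIs and 3 to 1461 UMIs of Cfd, the fat-cell protease adipsin. Of these 8 cells, 5 met no gate, 2 met the fibroblast gate and 1 the macrophage gate. At 1 week 2 met the fibroblast gate, 1 the macrophage gate and 1 the other-endothelium gate, the last with 18 Cdh5 UMIs. At 2 months 2 met the fibroblast gate and 1 none. Transcripts of the fat-cell hormone leptin (Lep) were at 0 in all 15 cells. The hormone-sensitive lipase gene Lipe was detected in 2, 2 and 1 of the control, 1-week and 2-month cells. The 3 control cells with most Adipoq (125, 130 and 323 UMIs) had 1461, 949 and 1363 Cfd UMIs and 351, 107 and 1155 Car3 UMIs. Lpl was present in all 15 cells, at 2 to 36 UMIs.

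**Figure D4:**
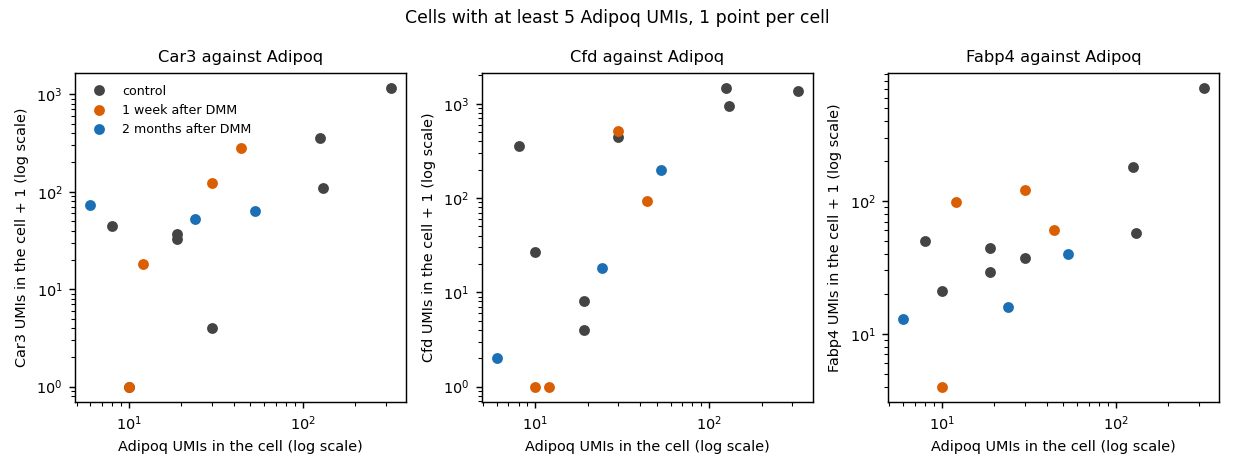
Each point is 1 of the 15 cells with at least 5 Adipoq UMIs, with its Adipoq UMIs on the x axis and its Car3, Cfd or Fabp4 UMIs plus 1 on the y axis (log scales), coloured by library. The cell with most Adipoq, 323 UMIs in the control, also had 1155 Car3, 1363 Cfd and 707 Fabp4 UMIs.

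Counted by gate, capillary endothelium had the most members below the control at 1 week. A member was counted where its CPM differed 2-fold or more and both sums held no fewer than 20 of its UMIs in total, and all comparisons with the control share that 1 library. At 1 week 8 of the 10 members passed the UMI minimum, and 7 were at least 2-fold lower (Lpl, Cd36, Fabp4, Pparg, Cebpa, Car3 and Cidec) and 0 higher. Of all 11968 genes 11.6% were lower and 8.36% higher by that rule, and the median log2 ratio was -1.77 for the members and -0.02 for all genes. Car3 and Cidec passed the minimum through the control alone and could only be counted as lower. Of the 6 members with at least 20 UMIs in each sum 5 were lower, and the other was Gpihbp1, which the gate had used. In UMIs per cell 4 members in place of 7 were counted. At 2 months 0 of 9 were 2-fold away from the control (2.68% of all genes lower, 4.89% higher), with a median of -0.65 against 0.06. Between the operated libraries 4 of 7 were higher at 2 months (Lpl, Cd36, Car3 and Cebpa) and 0 lower, where 12.4% of all genes were higher and 6.58% lower. Car3 passed there through the 2-month sum alone. At a threshold of 1.5-fold, 6 members were counted at 2 months against the control, but the share of all genes at that threshold was not counted.

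Joining capillary and other cells was added after seeing the data and uses no member as a gate. In CPM the joined endothelium had 7 of 9 members lower than the control at both times and 0 higher. At 1 week these were Lpl, Cd36, Fabp4, Pparg, Cebpa, Car3 and Cidec, where 10.4% of all genes were lower and 8.99% higher (medians -1.33 and 0.02). At 2 months they were Lpl, Fabp4, Pparg, Adipoq, Car3, Cidec and Gpihbp1, where 4.25% were lower and 5.22% higher (medians -1.31 and 0.06). Cidec at both times and Adipoq at 2 months passed without 20 UMIs in each sum, which leaves 6 of 8 and 5 of 7 lower. Control endothelial cells were also the shallower ones, at median depths of 8388, 11485 and 13266 UMIs. The counts for the joined gate were not remade in UMIs per cell, where differences below the control would be smaller. Capillary cells made up 31.2% of endothelial cells in the control and 17.9% at 2 months, and their part in the joined levels was not tested. Set against 1 week, the 2-month endothelium had 1 of 8 members lower (Adipoq) and 1 higher (Cd36), against 6.2% and 8.73% of all genes. Adipoq passed there without 20 UMIs in each sum, which leaves 0 of 7 lower.

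Mural cells held several members above the free-RNA level. Fabp4 was at 1547, 1745 and 748 CPM, 4.55, 18.5 and 8.91 times the neutrophil level per cell, and a UMI of Lpl was present in 58.9%, 75.4% and 67.6% of 253, 578 and 247 cells. Of the 5 members that passed the UMI minimum at 1 week 1 was lower, Cd36, at 62.5 and 30.7 CPM (2.04-fold, 1.66 to 2.51), and 0 higher, where 11.7% of all genes were lower and 11.4% higher. At 2 months Fabp4 alone of the 5 was lower than in the control, 2.07-fold (1.97 to 2.18), where 4.55% of all genes were lower and 6.46% higher. Fabp4 was also the 1 of 5 that was lower at 2 months than at 1 week (6.78% of all genes lower, 9.25% higher). Control mural cells were the shallower ones, at median depths of 8332, 10501.5 and 11338 UMIs. In UMIs per cell mural Cd36 was at 0.660 in the control and 0.372 at 1 week. Mural Fabp4 was at 16.3 in the control and 9.52 at 2 months. Both of these differences from the control were under the 2-fold threshold.

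**Figure D5:**
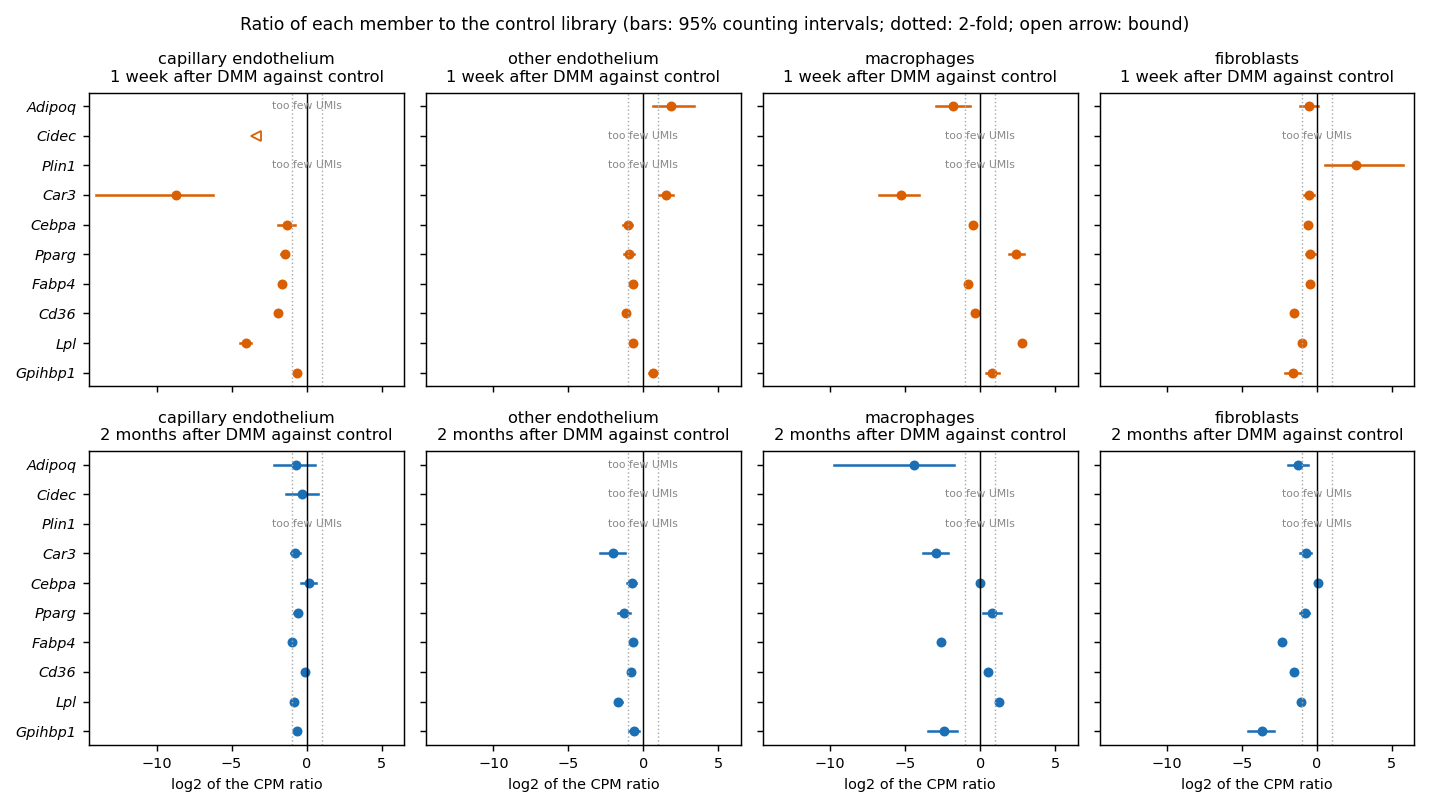
Log2 CPM ratio to the control of each member in 4 gates at 1 week (top) and 2 months (bottom), with 95% counting intervals, dotted lines at 2-fold and an open arrow for a bound against 0 UMIs. At 1 week 7 members lay beyond the lower 2-fold line in capillary endothelium, and Lpl and Pparg lay beyond the upper one in macrophages (log2 ratios 2.76 and 2.42), while Adipoq and Car3 in other endothelium rest on 1 cell.

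Signals of other cells and of RNA quality also differed between libraries in the capillary gate. The median mitochondrial share of UMIs was 1.81%, 3.59% and 3.37% in capillary cells, 1.58%, 3.71% and 3.40% in fibroblasts and 1.91%, 2.95% and 4.18% in macrophages, so it was lowest in the control in each, and its part in the differences was not tested. Haemoglobin transcripts (4 of 4 erythroid markers detected) summed to 6464, 420.2 and 2036 CPM, and mural markers (5 of 5) to 493, 105 and 777 CPM. The adipocyte marker list was at 201.3, 32.1 and 142.5 CPM with 8, 4 and 7 of 10 markers detected. Adipoq, Plin1 and Cidec, which define the fat cell, were at 0 UMIs there at 1 week, and leptin at 0 in all 3 libraries. Capillary Lpl at 1 week was 16.3-fold below the control without cells of more than 1% haemoglobin UMIs and 20.5-fold below it without cells with an Rgs5 UMI, in both cases against a 1-week level no higher than that of neutrophils. The part of adipocyte RNA in the differences of Car3, Cidec and Lpl was not tested.

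The wider fatty-acid list in capillary endothelium, 14 genes that include 4 members and the gate gene Rbp7, had 7 genes at least 2-fold lower at 1 week and 0 higher (median log2 -1.06 against -0.02 over all genes). Of all genes 11.6% were lower and 8.36% higher, which is the share to set beside each count here. Beside Lpl, Cd36, Fabp4 and Rbp7 these were the fatty-acid activating enzyme gene Acsl1, the transporter gene Slc27a3 and Tcf15, an endothelial transcription factor of fatty-acid uptake. Of the lipolysis genes 4 of 6 were lower (Pnpla2, Mgll, G0s2 and Aqp7, median -1.50). Aqp7, the glycerol channel, was at 148.6 CPM in the control and 9.30 at 1 week, 16.0-fold lower (12.1 to 21.5). Among 11 adipogenic transcription factors 4 were lower (Pparg, Cebpa, Ebf2 and the oxysterol receptor gene Nr1h3). For lipid synthesis 3 of 12 were lower and 2 higher, namely the desaturase gene Scd2 and the elongase gene Elovl6, while Scd1 was 11.9-fold lower (6.81 to 22.4). Thrsp, a nuclear protein of fat synthesis, was at 113 CPM in the control, 5.58 after 1 week and 114 after 2 months. Among wider-list genes other than members, with at least 50 UMIs and 10 CPM, Cfd had the smallest 1-week ratio to the control. This adipsin gene was at 55.3, 0.845 and 32.7 CPM (234, 5 and 108 UMIs), and the part of adipocyte RNA in its difference was not tested. Of 10 genes of mitochondrial fatty-acid oxidation 1 was lower (Cpt1b), near the share over all genes. Higher at 1 week were the vessel-growth peptide gene Apln (20.8 to 109 CPM, 5.26-fold, 4.20 to 6.65) and the cholesterol exporter gene Abca1 (61.9 to 186 CPM, 3.001-fold, 2.62 to 3.45).

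In other endothelium 8 members passed the minimum at 1 week, and 2 were lower (Cd36 and Cebpa) and 2 higher (Adipoq and Car3, from 1 cell), where 8.71% of all genes were lower and 9.11% higher. The member median was -0.69 against 0.05. Adipoq passed the minimum through the 1-week sum alone. At 2 months 3 of 7 were lower than in the control (Pparg, Lpl and Car3) and 0 higher, with 4.55% and 5% of all genes lower and higher and medians of -0.80 against 0.07. Car3 passed that comparison through the control sum alone, and of the 6 members with at least 20 UMIs in each sum 2 were lower. Set against 1 week, 3 of 8 were lower at 2 months (Adipoq, Car3 and Gpihbp1), with 6.32% of all genes lower and 6.92% higher. Adipoq and Car3 passed there through the 1-week sum alone, where 1 cell held 44 and 281 of their UMIs. Of the 6 members with at least 20 UMIs in each sum 1 was lower, Gpihbp1, which the gate had used to leave out capillary cells. Uptake genes on the wider list that were lower at 1 week were Tcf15, at 70.5 and 9.82 CPM (7.18-fold, 6.09 to 8.50), Cd36 and the gate gene Rbp7. The lipase inhibitor gene Angptl4 was 3.10-fold higher (2.70 to 3.57). Thrsp was again lower, 14.8-fold (10.1 to 22.3), and Aqp7 8.86-fold (5.91 to 13.7). Fibroblast markers in this gate summed to 7365, 14541 and 5355 CPM, and the fibroblast gene Sfrp2 was at 3.97 and 61.5 CPM in the control and 1-week sums. The part of those cells in the endothelial differences was not tested.

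In macrophages 8 members passed at 1 week, with 2 higher (Lpl and Pparg) and 2 lower (Adipoq and Car3), where 10% of all genes were higher and 12.1% lower. The medians were -0.42 and -0.07, but -0.42 rests in part on Adipoq and Car3. These passed the minimum without 20 UMIs in each sum, and the 6 members that had them were lower in 0 and higher in 2 cases, with a median of 0.22. At 2 months 1 of 8 was higher than in the control (Lpl) and 4 were lower (Adipoq, Fabp4, Car3 and Gpihbp1), with 5.81% and 5.5% of all genes higher and lower. Of the 5 members with at least 20 UMIs in each sum 1 was lower (Fabp4) and 1 higher (Lpl). Between the operated libraries 4 of 7 were lower at 2 months (Pparg, Fabp4, Lpl and Gpihbp1) and 1 higher (Car3), against 7.08% and 9.17% of all genes. Gpihbp1 and Car3 passed there without 20 UMIs in each sum, and of the other 5 members 3 were lower and 0 higher. Of 11 macrophage lipid-handling genes 5 were higher at 1 week than in the control and 0 lower (Gpnmb, Lpl, Fabp5, the lysosomal lipase gene Lipa and Lgals3, median 0.77 against -0.07). Fabp5, a carrier closely related to Fabp4, was at 28.2 control CPM, then 1012 after 1 week and 140.0 after 2 months, 35.9-fold above the control at 1 week (32.2 to 40.2). Gpnmb was 9.47-fold higher at 1 week (8.30 to 10.8), Angptl4 6.04-fold (4.87 to 7.57) and the lipid-droplet gene Hilpda 5.80-fold (5.15 to 6.57). Lower at 1 week were the flow-responsive factor gene Klf2, at 778 and 169 CPM, and Cebpd, at 204 and 45.3 CPM. Endothelial markers in the macrophage gate summed to 76.6, 134.5 and 58.9 CPM and fibroblast markers to 3016, 6554 and 3379, and their part in the differences was not tested.

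In fibroblasts 9 members passed at 1 week, with 2 lower (Cd36 and Gpihbp1) and 1 higher (Plin1), where 11.7% of all genes were lower and 13.4% higher (medians -0.52 and 0.03). Plin1 had fewer than 20 UMIs in each sum. At 2 months 5 of 8 were lower (Adipoq, Fabp4, Lpl, Cd36 and Gpihbp1) and 0 higher, with 5.08% and 7.32% of all genes and medians of -1.14 and 0.03. Of these 5, Fabp4 and Cd36 were at most 1.22 times the neutrophil level per cell (2.17 times without the richest neutrophil), and Adipoq and Gpihbp1 had 47 and 98 UMIs in the control. Lpl was 9.55, 3.34 and 6.30 times that level. Gpihbp1 had 14 UMIs at 2 months, and of the 7 members with at least 20 UMIs in each sum 4 were lower. At 2 months against 1 week 3 of 9 were lower at 2 months (Fabp4, Plin1 and Gpihbp1), with 9.44% of all genes lower and 9.88% higher. Plin1 and Gpihbp1 passed there without 20 UMIs in each sum, and of the other 7 members 1 was lower. Among 14 adipogenic transcription factors 6 were at least 2-fold lower at 1 week than in the control (Cebpd, Klf15, Ebf2, Nr1h3, Srebf1 and Mlxipl) and 1 higher (Ppargc1a), with a median of -0.78 against 0.03. At 2 months 6 of the 14 were above 1 week and 0 below (median 0.92 against 0.02). Of 10 genes that restrain fat-cell formation 4 were higher at 1 week (Dlk1, Zfp521, Foxc2 and Sfrp2) and 1 lower, Wnt10b (10.5 and 1.23 CPM, 8.51-fold, 6.90 to 10.6). Fabp5 was at 9.92, 93.2 and 4.95 CPM and Angptl4 at 29.3, 184 and 28.5, so both were high at 1 week alone among these libraries. The monoglyceride lipase gene Mgll went the other way, at 67.4, 10.2 and 41.6 CPM, and of 10 fatty-acid oxidation genes 0 differed 2-fold from the control at either time. Macrophage markers in the fibroblast gate summed to 143, 59.2 and 43.3 CPM and neutrophil markers to 48.6, 95.9 and 202.4, with the same limit.

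Over the 18 sums of 6 gates and 3 libraries, the transcript most like Adipoq in log2 CPM was Cfd (Pearson r = 0.90), followed by Arf4os (0.81) and Ubd (0.79), among 13125 genes. For Gpihbp1 the closest were Fam89a (0.95), Btnl9 (0.95) and Ccdc85a (0.93), and for Pparg they were Adora2a (0.91), Hoxb3os (0.88) and Sept4 (0.88). Among the members, Adipoq and Car3 had r = 0.92, Car3 and Cidec 0.84, Pparg and Fabp4 0.79, Plin1 and Cidec 0.79, and Fabp4 and Gpihbp1 0.77. Fabp4 and Cebpa had r = -0.45. These values describe 18 sums that share 3 libraries, their depth and their gates, and genes held by a few cells follow those cells.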

How the data were processed

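Each deposited matrix gave raw UMI counts, 1 per gene and barcode. The control had 9003 barcodes with 96782789 UMIs, 1 week had 13986 with 179561680, and 2 months had 10799 with 159333121. Per the file headers the authors wrote them with Cell Ranger 5.0.0 (control, 1 week) and 5.0.1 (2 months), while the submitters' processing notes name Cell Ranger 6.0.1 and build mm10. The filter kept cells of 500 or more genes and a mitochondrial share up to 10%, and doublets were kept (Scrublet in scanpy 1.11.5 called 326, 525 and 457 cells and was an alternative). Gates used raw counts, and a cell could meet several gates. Raw UMIs were summed per gate and library and scaled to CPM. The 95% intervals are exact (Poisson for a CPM, Clopper-Pearson for a share, conditional binomial for a ratio) and cover counting error only, since there was 1 library per group. A sum of 0 was set to a floor of 3 UMIs per gate sum. Fibroblasts were put in a subset when its genes summed to 3 or more UMIs and those of no other subset did. Vsig4-positive macrophages had at least 1 UMI, and Gpnmb-positive ones at least 2. The 10 members and the 9 wider lists (84 further genes, all in the files) were chosen with earlier results of these data known. All members are named, and from the lists, per gate and comparison, examples from the 4 highest and 4 lowest ratios among genes with at least 50 UMIs and 10 CPM, together with the genes that make up a list's count. The genes named as most like a member had at least 200 UMIs over the 18 sums, and predicted, mitochondrial, ribosomal and haemoglobin genes were left out. On simulated counts with 200 genes changed 3-fold between the control and 1-week sums, the 2-fold rule found 200 in fibroblasts, capillary endothelium and other endothelium and 199 in macrophages, and called 0.7215%, 1.263%, 1.038% and 1.043% of unchanged genes. The changed genes had at least 100 UMIs in the control sum, and the noise was Poisson alone. Changes in genes with fewer UMIs, single rich cells and variation among animals were not simulated. Alternatives covered the cell filter, doublets, gates, weighting, fold and UMI thresholds and subtraction of free RNA. Python 3.11.15, numpy 2.4.6, scipy 1.17.1, pandas 2.3.3 and matplotlib 3.10.9 were used.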

Additional observations from a re-analysis of the deposited data

Results flagged for a closer look

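Some members differed at least 2-fold in opposite directions in different gates of the same libraries. With 1 library per group, none of these differences between gates was tested. At 1 week against the control the log2 ratio of Lpl was -4.05 in capillary endothelium and 2.76 in macrophages, and that of Pparg was -1.47 and 2.42 in the same gates. At 2 months against the control Lpl was at -1.04 in fibroblasts and -1.67 in other endothelium but at 1.23 in macrophages. Between the operated libraries Lpl at 2 months was at 3.22 in capillary endothelium and -1.53 in macrophages. Macrophages held 8096 of the 19625 Lpl UMIs of passed cells at 1 week and 580 of 10755 in the control.

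The other opposite directions belong to genes with few UMIs or to 1 cell. At 1 week Car3 had log2 ratios of -8.71 in capillary endothelium and -5.25 in macrophages but 1.5 in other endothelium, and Adipoq was at -1.78 in macrophages and 1.86 in other endothelium. The 2 positive values come from 1 cell with 281 Car3 and 44 Adipoq UMIs. Against 1 week, Car3 at 2 months was at 7.96 in capillary endothelium, 2.30 in macrophages (15 against 6 UMIs) and -3.52 in other endothelium, the last again through that cell.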

How the results depend on the processing

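Of 177 counts of 2-fold members recomputed under alternatives over 12 comparisons, 154 stayed within 1.5 times the main count and 23 did not. Apart from the joined endothelium, shares over all genes were not counted under the alternatives, so the counts at 1.5-fold have no share to set beside them. For capillary endothelium at 2 months against the control, 0 in the main setting, the count was 2 with the stricter cell filter, 1 without Scrublet doublets, 1 with the gate on Rbp7 alone, 2 with neutrophil free RNA subtracted, 6 at 1.5-fold, 7 with all endothelium together and 2 without cells with an Rgs5 UMI. The capillary count at 1 week fell from 7 to 4 in UMIs per cell, and between the operated libraries from 4 to 2 with all endothelium together. In other endothelium the count at 2 months against the control went from 3 to 5 with strict gates, 6 with equal weight per cell, 5 with free RNA subtracted and 7 at 1.5-fold, at 1 week from 4 to 8 at 1.5-fold, and between the operated libraries from 3 to 1 with equal weight. In macrophages the count between the operated libraries went from 5 to 3 with strict gates, and at 2 months against the control from 5 to 3 with at least 100 UMIs. In fibroblasts the count at 2 months against the control went from 5 to 3 with equal weight, 3 in UMIs per cell and 2 with the control's mix of subsets. Between the operated libraries it went from 3 to 5 at 1.5-fold and 1 with at least 100 UMIs. At 1 week it went from 3 to 5 with the level of neutrophils of no other gate subtracted. Among members 2-fold away in the main setting, Car3 was the one that changed direction. In other endothelium its 1-week log2 ratio to the control was -6.56 without doublets, -1.40 with equal weight and -6.63 without cells of at least 5 Adipoq UMIs, and its 2-month ratio to 1 week was 4.67 without doublets and 4.61 without those cells. In macrophages the 2-month ratio to 1 week was -0.019 with either neutrophil level subtracted, and in capillary cells it was -0.37 with all endothelium together. Of members under 2-fold in the main setting, 55 values for 22 ratios of 9 genes changed sign, 10 of them to a size past 2-fold. At 1 week against the control macrophage Fabp4 went from -0.78 to 7.09 and 7.75 and fibroblast Pparg from -0.44 to 3.99 and 5.33 with the 2 neutrophil levels subtracted. Macrophage Gpihbp1 went from 0.79 to -1.69 without doublets and -1.26 with strict gates. Fibroblast Pparg at 2 months against the control went from -0.82 to 1.10 and 4.19, and with the second neutrophil level fibroblast Cd36 (0.037 to -3.88) and Cebpa in other endothelium (0.26 to -1.34) changed between the operated libraries. Subtraction took the control sums of macrophage Fabp4 and fibroblast Pparg, and the 2-month sum of fibroblast Cd36, to 0. These sums were set to the floor of 3 UMIs, so the values after subtraction are bounds and not ratios of measured levels. For the Car3 reversals in other endothelium the 1 cell left out or weighted down held 281 of 282 UMIs. With all endothelium together, that cell held 281 of the 283 Car3 UMIs at 1 week. In macrophages subtraction took the 2-month sum of 15 Car3 UMIs to 0, which was set to the floor of 3 UMIs. The cause of the other changes was not tested. The joined endothelium, the removal of Rgs5 and Adipoq cells and the second neutrophil level were chosen after seeing the data. No paired analysis was possible because each group was 1 library, and for the same reason no library could be left out. Depth limits Adipoq, Plin1 and Cidec, which had 0 to 52 UMIs in any of the 4 compared gates, and capillary values rest on 207 to 396 cells.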

Other observations

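Fabp5, the near relative of Fabp4 that is not a member, had a different distribution. In macrophages it was at 28.2, 1012 and 140.0 CPM, in fibroblasts at 9.92, 93.2 and 4.95 CPM and in capillary endothelium at 822, 714 and 322 CPM. In capillary cells the 2-month level of Fabp5 was 2.55-fold below the control (2.38 to 2.74) and that of Fabp4 1.95-fold below, whereas at 1 week only Fabp4 was at least 2-fold lower. Among the Gpnmb-positive macrophages without Vsig4, Fabp5 was at 44.8, 2280 and 687 CPM, and Plin2, which coats lipid droplets in most cell types, at 217, 712 and 166 CPM.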
